A study of Mus musculus with 6 samples.

Results

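The genes described here are the MS4A genes outside the IgE receptor, in mouse bone marrow cells with and without Dnmt3a. They were chosen by name, with earlier results of these data known: Ms4a4c, Ms4a6b, Ms4a6c, Ms4a6d, Ms4a7, Ms4a8a and Ms4a4a. Of these 7 genes, 6 are among the 15139 rows of the expression table, and Ms4a4a was not analysed here. The knockout (KO) samples are labelled MxCre+v: Dnmt3a-/- and the wild-type (WT) samples MxCre+v: Dnmt3a+/+, so both genotypes carry the Mx-Cre recombinase, whose promoter responds to interferon. Other label fields call the KO cells a knockdown, and the sources used here do not give age, induction of the recombinase or the number of animals. Marrow cells of both genotypes were cultured with IL3 at 10 ng/ml and SCF (the ligand of the receptor KIT) at 50 ng/ml, cytokines that favour mast cells and immature myeloid cells, and RNA was taken at week 1. Messenger RNA was sequenced in 2 KO libraries (replicates 2 and 3) and 3 WT libraries, while KO replicate 1 was not analysed here. The series title asks how loss of Dnmt3a, a de novo DNA methyltransferase, skews myeloid cells.

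MS4A genes encode tetraspan membrane proteins, relatives of the B cell antigen CD20, and sit side by side in a gene cluster. Ms4a2, the best known myeloid member, is the beta subunit of the high-affinity IgE receptor of mast cells and basophils. Most of the genes described here are known from monocytes and macrophages, where MS4A proteins are thought to act beside other surface receptors. The human relatives MS4A4A and MS4A6A lie at a locus linked to Alzheimer's disease and to the level of soluble TREM2.

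All levels are FPKM, the fragments of a gene adjusted for its length and for library size, so levels can be compared between genes but the depth of each library is unknown. Dnmt3a itself had 2.58 and 3.42 FPKM in the KO libraries, against 6.68, 9.99 and 9.04 FPKM in WT replicates 1, 2 and 3. WT replicates 2 and 3 expressed Xist and WT replicate 1 and both KO libraries the Y-linked Ddx3y, so sex was not balanced between the genotypes, and the WT libraries came from at least 2 animals. The labels do not say more about separate animals or cultures, and the p-values cover the spread of these libraries, part of which may be technical. Cpa3, a marker of mast cells that basophils and progenitors also express, and Csf1r, a marker of monocytes and macrophages, were detected in every library, and of 8 B cell markers 3 were in the table, with 2.66 and 1.5 FPKM summed in the KO and 1.98 to 3.31 FPKM in WT.

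The members lie along 537 kb of chromosome 19 (GRCm38.p6, the mm10 build that the submitters' processing notes name). Ms4a8a spans 11067471 to 11081103, Ms4a7 11321039 to 11336146, Ms4a4c 11404717 to 11427246, Ms4a6c 11469353 to 11487182, Ms4a6b 11518559 to 11530403 and Ms4a6d 11586606 to 11604804. Ms4a4c, Ms4a6c and Ms4a6b are on the plus strand, and the other 3 are on the minus strand. Promoters of 300 bases, mostly upstream of a start site, were found in RefSeq's GRCm38.p6 tables for Ms4a4c, Ms4a6b, Ms4a6c, Ms4a7, Ms4a8a and Ms4a4a. No promoter was found for Ms4a6d, so it was not searched. The Ms4a4c window starts at 11407411, inside the span of the gene given above. The pair from Ms4a6c and Ms4a6b is printed because these paralogs share sequence in these windows while their log2 changes were -1.74 and -0.70. It lies at chr19:11469118-11469417 for Ms4a6c and chr19:11518309-11518608 for Ms4a6b, both on the plus strand, and capitals mark identical runs of at least 10 bases in the alignment of the pair.
Ms4a6c: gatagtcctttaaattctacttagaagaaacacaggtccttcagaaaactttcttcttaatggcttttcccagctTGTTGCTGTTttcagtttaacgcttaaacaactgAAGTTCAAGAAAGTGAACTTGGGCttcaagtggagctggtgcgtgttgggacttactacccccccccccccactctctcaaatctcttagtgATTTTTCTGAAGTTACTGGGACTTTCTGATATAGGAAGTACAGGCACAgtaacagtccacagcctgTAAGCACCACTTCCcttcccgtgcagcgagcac
Ms4a6b: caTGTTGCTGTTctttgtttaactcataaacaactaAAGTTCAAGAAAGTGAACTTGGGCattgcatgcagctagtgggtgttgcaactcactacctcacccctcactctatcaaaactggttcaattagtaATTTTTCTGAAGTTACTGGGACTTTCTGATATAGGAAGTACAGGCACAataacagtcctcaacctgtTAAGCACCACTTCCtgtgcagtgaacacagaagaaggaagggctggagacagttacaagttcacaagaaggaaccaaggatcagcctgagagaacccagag

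Of 223 aligned positions in this pair, 197 (88.3%) were identical, and the longest run was 48 bases. Across 19 pairs of other member promoters, aligned in the same way, 63.4% to 74.4% of aligned positions were identical. CpG dinucleotides, the sites that DNA methyltransferases act on, were below the median of 7 over 32851 promoters in each of these windows. The Ms4a6b and Ms4a4c promoters held 0, as did 5.43% of all promoters. The Ms4a6c promoter held 4, and 38.0% of all promoters held as few. The Ms4a8a promoter held 2 (23.3% held as few), and the listed start sites of Ms4a7 had 6 (47.9%) and 1 (14.1%). GAGGAA, a core sequence read by the myeloid factor PU.1, was found once at Ms4a4c and once at the start site of Ms4a7 with 6 CpG, searched on both strands, and 28.3% of all promoters held it. TGANTCA, read by AP-1, was found once at Ms4a8a and once at the other Ms4a7 start site, against 7.81% of all promoters. TTGCNNAA (C/EBP, in 10.8% of all promoters) and TATAAA (13.6%) were not found in these windows of any member searched, which leaves out Ms4a6d. Nor were an interferon response element, searched as GAAA repeated after any 2 bases (3.44%), and a composite element of PU.1 with IRF4 or IRF8, searched as GGAA and, after any 2 bases, GAAA (2.72%), which can overlap. DNA methylation was not measured here.

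The members were lower in the KO. All 6 in the table fell (limma on log2(FPKM + 1), adjusted p under 0.05 over 11365 tested genes), against 13% of all tested genes that fell and 22.1% that changed in either direction. Their median log2 change, KO over WT, was -1.49, against -0.04 over all tested genes. A gene was tested when it had 1 FPKM or more in at least 2 libraries, and Ms4a4c passed that filter only through WT, so it had to differ and the count of 6 is a description. The calls of Ms4a6b and Ms4a8a were lost in some of the alternative fits given below. In the authors' own test, the adjusted p of Ms4a8a, Ms4a4c and Ms4a6b was above 0.05. Summed over the 6 genes, the KO libraries held 34.5 and 28.9 FPKM, against 109, 114 and 102 FPKM in WT replicates 1, 2 and 3. For all 6 genes both KO libraries lay below every WT library, as they did for 30.8% of tested genes, while for 51.1% they lay on one side of WT. The KO mean of the sum was 31.7 ± 3.95 FPKM (SD, n = 2) and the WT mean 108 ± 5.96 FPKM (SD, n = 3), so the KO held 29.3% of the WT level. In a bulk sample, fewer cells of a type and less RNA per cell cannot be told apart.

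**Figure D1:**
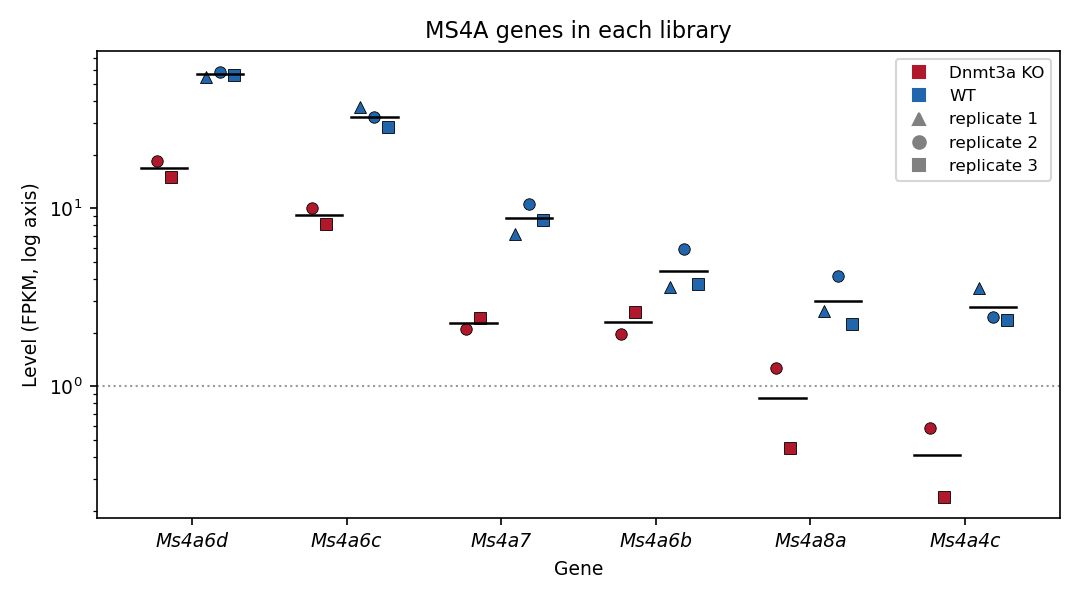
Level of each MS4A gene in FPKM (log axis) in Dnmt3a KO (red) and WT (blue) libraries, with 1 point per library, its replicate by shape, and the group mean as a bar; the dotted line is 1 FPKM, the level used in the filter. For each of the 6 genes both KO points lie below all 3 WT points, and Ms4a4c lies below 1 FPKM in both KO libraries.

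The MS4A6 genes Ms4a6d, Ms4a6c and Ms4a6b held most of the summed level of the 6 members. Ms4a6d, known in mouse macrophages as a surface protein that can dampen or promote inflammatory signals with its partners, was the most abundant. It had 18.47 and 15.0 FPKM in KO replicates 2 and 3, against 54.6, 58.2 and 56.3 FPKM in WT replicates 1, 2 and 3. The WT libraries were close to each other, and both KO libraries lay far below them. The log2 change of Ms4a6d was -1.70 ± 0.10 (SE; limma adjusted p = 0.000236), with a 95% interval of -1.93 to -1.47.

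Ms4a6c, a gene of mouse monocytes, came next. It had 10.08 and 8.13 FPKM in the KO libraries, against 37.01, 32.43 and 28.57 FPKM in the WT libraries. The groups did not overlap, and the KO mean was 27.9% of the WT mean. The log2 change of Ms4a6c was -1.74 ± 0.13 (SE; limma adjusted p = 0.000354). Only 0.510% of all tested genes had a more negative change than Ms4a6c, and 0.581% a more negative change than Ms4a6d. The long noncoding RNA gene BE692007 lies on the opposite strand inside Ms4a6c over 9133 bases and was not analysed here. Of the 50-base windows of annotated Ms4a6c transcripts, 51.4% are also found in another gene's transcripts, mostly BE692007, and without strand the reads of those shared stretches cannot be told apart.

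Ms4a6b, described in mouse T cells as a regulator of their activation, had the smallest change of the 6. It had 1.97 and 2.62 FPKM in the KO libraries, against 3.63, 5.92 and 3.73 FPKM in the WT libraries. The groups did not overlap, but the lowest WT library and the highest KO library were only about 1 FPKM apart, and WT replicate 2 stood above the other WT libraries. The log2 change of Ms4a6b was -0.70 ± 0.20 (SE; limma adjusted p = 0.0450), with an interval of -1.17 to -0.23. This call was lost in 10 of 16 alternatives, and over all 16 the limma adjusted p ran from 0.0344 to 0.281. It was lost without WT replicate 2 (log2 change -0.51, adjusted p = 0.0730) or KO replicate 2 (-0.56, 0.170), where the change was smaller. It was also lost without WT replicate 3 (log2 change -0.79, adjusted p = 0.0587) or KO replicate 3 (-0.84, 0.0828), where the change was larger. With a term for sex the log2 change was -0.50 and the call was lost as well (0.281), a fit that compares the KO libraries with WT replicate 1. Of its 50-base windows, 3.57% are found in other genes, among them Ms4a6c and Ms4a6d.

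The other 3 members were less abundant than Ms4a6d and Ms4a6c. Ms4a7, a macrophage gene also used as a marker of macrophages of blood origin in the mouse brain, had 2.10 and 2.43 FPKM in the KO libraries, against 7.15, 10.52 and 8.61 FPKM in the WT libraries. Each WT library held more than the highest KO library by at least 4 FPKM. The KO mean of Ms4a7 was 2.27 ± 0.233 FPKM (SD, n = 2) and the WT mean 8.76 ± 1.69 FPKM (SD, n = 3). The log2 change of Ms4a7 was -1.57 ± 0.15 (SE; limma adjusted p = 0.000744), and 0.306% of its windows are found elsewhere.

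Ms4a4c, which interferon raises in mouse myeloid cells, had 0.58 and 0.24 FPKM in the KO libraries, against 3.54, 2.45 and 2.35 FPKM in the WT libraries. Both KO libraries were under 1 FPKM and every WT library was above 2 FPKM. The KO mean was 14.7% of the WT mean, the lowest share of the 6 genes, although its log2 change of -1.42 ± 0.19 (SE) was not the largest, because adding 1 FPKM shrinks the change of low genes. With 0.01 FPKM added in its place, the log2 change of Ms4a4c was -2.84. Its limma call supports nothing further, since the gene passed the filter only through WT. Of its windows, 8.19% are found in other genes, mostly Ms4a4b.

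Ms4a8a, reported in mouse macrophages under alternative activation, had 1.26 and 0.45 FPKM in the KO libraries, against 2.66, 4.18 and 2.25 FPKM in the WT libraries. The groups did not overlap, and each group had a wide spread for its level. The log2 change of Ms4a8a was -1.13 ± 0.26 (SE; limma adjusted p = 0.0204), with an interval of -1.73 to -0.52. The call was lost without KO replicate 3 (0.112), the library with 0.45 FPKM, and with sex as a covariate (0.128), and the adjusted p ran from 0.00208 to 0.128 over its 16 alternatives. None of its windows is found in another annotated gene.

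The order of levels was nearly the same in both genotypes. In the KO it was Ms4a6d (mean 16.7 FPKM), Ms4a6c (9.11), Ms4a6b (2.29), Ms4a7 (2.27), Ms4a8a (0.855) and Ms4a4c (0.410). In WT it was Ms4a6d (mean 56.4 FPKM), Ms4a6c (32.7), Ms4a7 (8.76), Ms4a6b (4.43), Ms4a8a (3.03) and Ms4a4c (2.78). The ranges of Ms4a6b and Ms4a7 overlapped in the KO and did not overlap in WT. Those of Ms4a8a and Ms4a4c overlapped in both genotypes, and those of Ms4a6b and Ms4a8a in WT. Ms4a6d made up 53.6% and 52.0% of the members' summed FPKM in the KO libraries, against 50.3% to 55.3% in the WT libraries. Ms4a6c made up 29.3% and 28.2% in the KO libraries, against 28.1% to 34.1% in WT. The share of Ms4a6b was 5.72% and 9.08% in the KO libraries and 3.34% to 5.21% in WT. The share of Ms4a4c was 1.68% and 0.831% in the KO libraries and 2.15% to 3.26% in WT. These shares are a description, and no test was made on them.

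**Figure D2:**
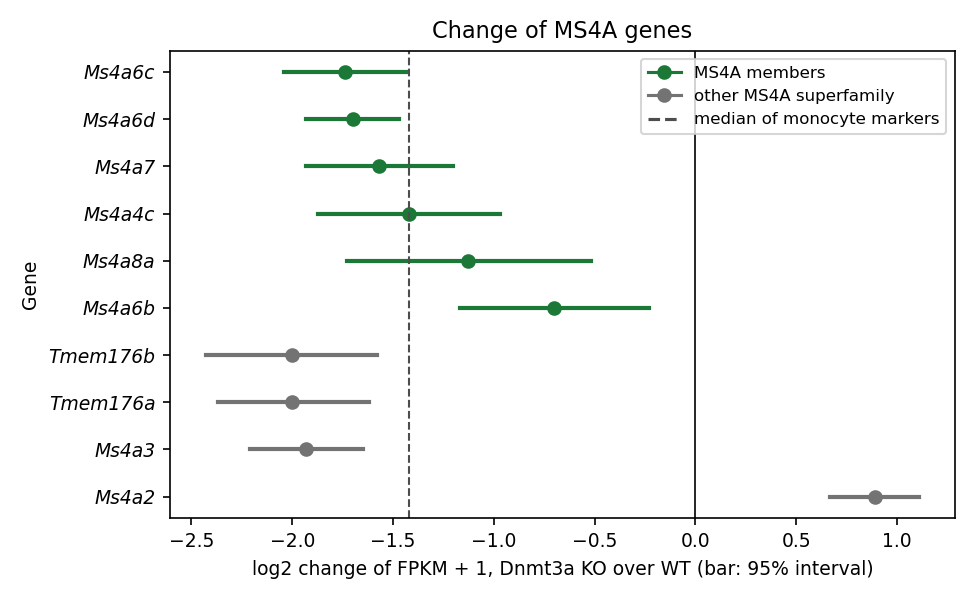
Log2 change of FPKM + 1, Dnmt3a KO over WT, for the 6 MS4A members (green) and the 4 other tested genes of the superfamily (grey), with 95% intervals as bars; the dashed line is the median of the monocyte and macrophage markers, -1.42. All genes but Ms4a2 lie below 0, and Ms4a6b lies nearest to it, at -0.70.

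Markers of monocytes and macrophages moved with the members. Of 23 tested markers 19 fell and 1 rose, while 13% of all tested genes fell and 9.08% rose. The list, like the members, was chosen with earlier results known, so this count is a description. The markers' median log2 change was -1.42, and their summed level was 3400 and 3080 FPKM in the KO libraries, against 7680 to 9590 FPKM in the WT libraries. Much of that sum is Lyz2, the lysozyme gene, which neutrophils also express, and without it the sum was 1810 and 1770 FPKM in the KO libraries, against 3120 to 3380 FPKM in WT. The markers did not all move together. Cx3cr1, a chemokine receptor gene of monocytes and macrophages, rose, with 26.1 and 24.5 FPKM in the KO libraries, against 9.26, 7.91 and 9.51 FPKM in the WT libraries (log2 change 1.41 ± 0.10 SE; limma adjusted p = 0.000321). Adgre1, which encodes the surface antigen F4/80, had a KO mean at 96.3% of the WT mean. For Ly6c2, a gene of inflammatory monocytes, it was 97.5%, and neither gene passed (limma adjusted p = 0.801 and 0.833). Cd163, the other marker that did not pass (limma adjusted p = 0.156), was low but higher in the KO. It had 1.74 and 1.92 FPKM in the KO libraries, against 1.2, 1.53 and 0.97 FPKM in the WT libraries. Csf1r, which encodes the macrophage growth factor receptor, had 30.75 and 25.41 FPKM in the KO libraries, against 105.28, 101.50 and 90.67 FPKM in the WT libraries. Divided by the Csf1r level of the same library, Ms4a6d stood at 0.601 and 0.590 in the KO and at 0.519 to 0.621 in WT. The ratio of Ms4a6c to Csf1r was 0.328 and 0.320 in the KO, against 0.315 to 0.352 in WT. For Ms4a7 the ratio was 0.0683 and 0.0956 in the KO, against 0.0679 to 0.104 in WT. For Ms4a8a it was 0.0410 and 0.0177 in the KO, against 0.0248 to 0.0412 in WT. The ratios of these 4 members to Csf1r thus overlapped between genotypes. This rests on a divisor that fell with the members, and ratios to Adgre1 or Ly6c2, which did not pass, were not taken.

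The other 2 ratios to Csf1r did not overlap. Ms4a6b per Csf1r was higher in the KO, at 0.0641 and 0.103, against 0.0345 to 0.0583 in WT. Ms4a4c per Csf1r was lower in the KO, at 0.0189 and 0.00945, against 0.0241 to 0.0336 in WT. Among all 11365 tested genes, 97.2% had ratios to Csf1r that did not overlap between the genotypes, and since Csf1r itself fell to 28.3% of its WT mean, genes that changed less than it are set apart by the division. Nothing about the members is read from that share. Csf1r was taken as the divisor with its values known, and no test was made on the ratios.

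**Figure D3:**
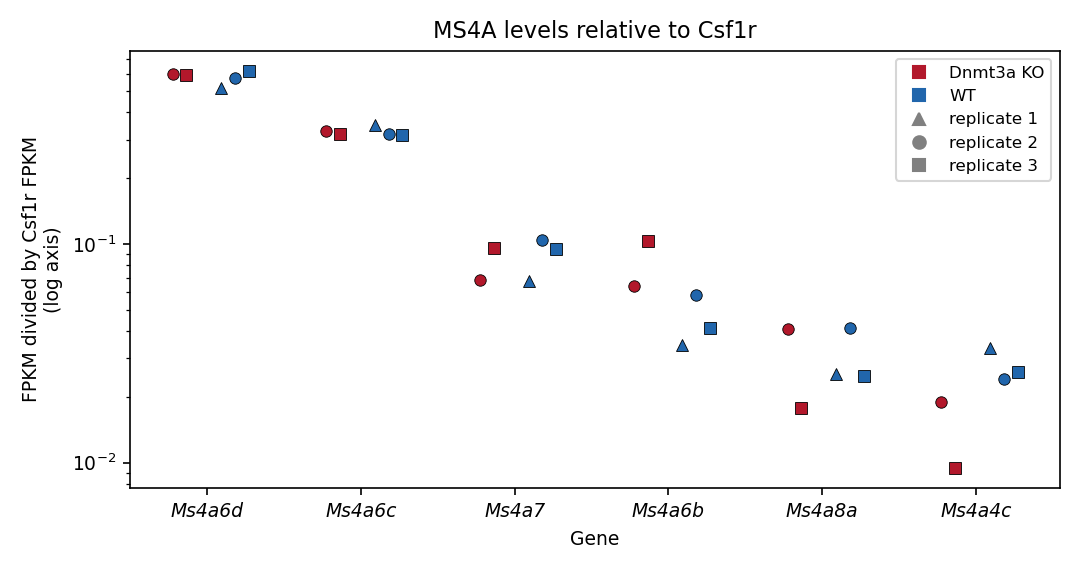
Level of each MS4A gene divided by the Csf1r level of the same library (log axis), in Dnmt3a KO (red) and WT (blue) libraries, with 1 point per library and its replicate by shape. The points of Ms4a6d, Ms4a6c, Ms4a7 and Ms4a8a overlap between genotypes, while both KO points of Ms4a6b lie above and both of Ms4a4c below the WT points.

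Markers of other cell types moved as well, and their part in the result was not tested. Of all tested genes, 13% fell and 9.08% rose. Of 16 tested neutrophil markers 12 fell and none rose (median log2 change -0.84), with a summed level of 17500 and 13500 FPKM in KO replicates 2 and 3, against 23500 to 34700 FPKM in WT. All 8 tested dendritic cell markers, which include MHC class II genes, fell (median -2.43), Ciita after passing the filter only through WT. Of the genes that mark dendritic cells more narrowly, Flt3, Xcr1, Clec9a and Cd209a were at 0.28 FPKM or less and Zbtb46 at 0.57 FPKM or less in every library. Of 15 tested mast cell markers 11 rose and none fell (median 0.90), with a summed level of 32800 and 28600 FPKM in the KO libraries, against 12200 to 14000 FPKM in WT. No T or NK cell marker passed the filter, and the 6 in the table summed to 2.26 and 1.13 FPKM in the KO libraries, against 1.54 to 2.06 FPKM in WT. The markers of basophils (3 of 6 rose), eosinophils (1 of 9 rose), erythroid cells (3 of 6 fell) and megakaryocytes (2 of 6 rose and 2 fell) were called in part. The 1 of 9 is near the share of all tested genes that rose. Of the B cell markers, Cd79b alone was tested, and it did not pass (log2 change -0.41, limma adjusted p = 0.123).

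The other genes of the superfamily moved in both directions. Of 17 listed, 5 were in the table and 4 were tested, of which 3 fell and 1 rose, while 13% of all tested genes fell and 9.08% rose. Ms4a3, a gene of granulocyte and monocyte progenitors that is thought to restrain their cell cycle, had 29.84 and 24.32 FPKM in the KO libraries, against 118.48, 98.37 and 100.48 FPKM in the WT libraries (log2 change -1.93 ± 0.12 SE; limma adjusted p = 0.000236). Tmem176a and Tmem176b, ion channel genes of myeloid and dendritic cells on opposite strands of chromosome 6, fell by 2.0 each on the log2 scale (SE 0.16 and 0.18). The span of Tmem176a lies inside that of Tmem176b, and reads of the shared stretch cannot be told apart without strand. Tmem176b had 7.17 and 5.34 FPKM in the KO libraries, against 35.13, 23.92 and 25.75 FPKM in the WT libraries. Ms4a2, which the selection left out, was the exception: it had 267 and 310.42 FPKM in the KO libraries, against 149.07, 150.03 and 165.58 FPKM in the WT libraries, and its log2 change was 0.89 ± 0.09 (SE; limma adjusted p = 0.000909). Ms4a2 held 14.5 and 20.7 times the level of Ms4a6d in the KO libraries, against 2.58 to 2.94 times in WT. Ms4a4b, known from T cells and the closest relative of Ms4a4c, had 1.26 and 0.67 FPKM in the KO libraries, against 0.44, 0.98 and 0.71 FPKM in WT, and did not pass the filter.

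Neighbours on the chromosome did not share a direction. Within 100 kb of the outermost members, 38 genes are annotated and 12 are in the table, the 6 members among them. Ms4a2 rose although it lies between Ms4a6d and Ms4a3, which both fell. AW112010, a long noncoding RNA gene of inflammatory cells beside Ms4a8a, had 3.91 and 2.94 FPKM in the KO libraries, against 16.24, 8.23 and 9.94 FPKM in the WT libraries, and fell (log2 change -1.45 ± 0.25 SE; limma adjusted p = 0.00699). Without KO replicate 3 its call was lost (0.0559), and the adjusted p ran from 0.00208 to 0.0559 over 17 alternatives. Past Ms4a3, the oocyte gene Oosp1 had 0.87 and 1.08 FPKM in the KO libraries, against 1.28, 2.19 and 0.71 FPKM in WT, and did not pass (limma adjusted p = 0.569). Oosp2 was under 1 FPKM in every library.

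**Figure D4:**
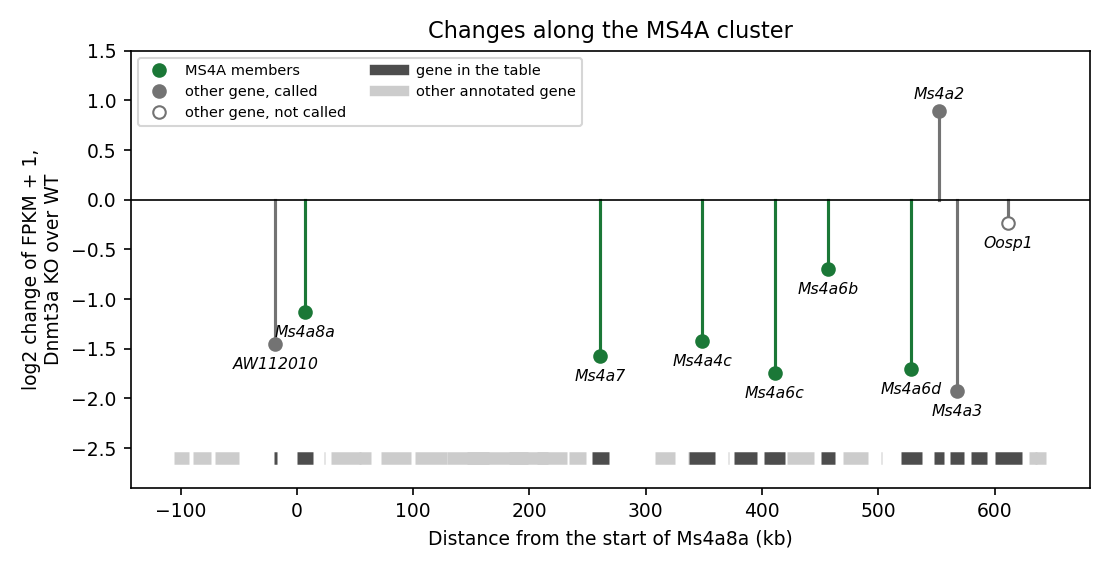
Log2 change of FPKM + 1, Dnmt3a KO over WT, for tested genes of the MS4A cluster by distance in kb from the start of Ms4a8a, with annotated genes as blocks along the bottom. The members (green) and AW112010 and Ms4a3 (grey) point down, Ms4a2 points up at 0.89, and Oosp1 (open) did not pass the test.

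Because interferon raises some MS4A genes, 16 interferon-induced genes were listed. Of the 11 tested, 5 fell and 1 rose, against 13% of all tested genes that fell and 9.08% that rose. Of these 11, 3 had no KO library at 1 FPKM and were tested only through WT (Ifit2, Rtp4 and Mx1), and 2 of the 5 falls were among them (Ifit2 and Rtp4), so the count is a description. Oas1a, a sensor of double-stranded RNA, had 4.75 and 4.20 FPKM in the KO libraries, against 14.23, 15.04 and 12.03 FPKM in the WT libraries (log2 change -1.43; limma adjusted p = 0.000426). Usp18, which switches off interferon signalling, rose, with 6.65 and 7.28 FPKM in the KO libraries, against 4.39, 3.27 and 4.63 FPKM in WT, but lost its call without KO replicate 3 (limma adjusted p = 0.0890) and with sex as a covariate (0.128), within a range of 0.0101 to 0.128. Bst2 did not pass (log2 change -0.05, limma adjusted p = 0.850), though it did without KO replicate 2 (0.0248). With sex as a covariate, 3 of the 11 fell and none rose.

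Among all tested genes outside the superfamily, the 5 closest to the members' median profile were Phf11b, Dab2, Plxnb2, Atrnl1 and Oas1a. Closeness was the root-mean-square difference over the 5 libraries of log2(FPKM + 1) minus its WT mean, and it ran from 0.044 for Phf11b to 0.065 for Oas1a. In the members' median profile the KO libraries stood at -1.40 and -1.54, and the WT libraries at -0.08, 0.15 and -0.17. Phf11b had 0.63 and 0.51 FPKM in the KO libraries, against 3.23, 4.22 and 2.92 FPKM in WT. It passed the filter only through WT, so it had to be lower in the KO. Closeness also depends on the 1 FPKM added, in these 5 genes and in the members' profile, and no other value was tried for it. The log2 change of Phf11b was -1.50, and -2.57 with 0.01 FPKM added in its place. In the same way Plxnb2 went from -1.46 to -1.92 and Atrnl1 from -1.47 to -1.87. Dab2 (-1.43 and -1.52) and Oas1a (-1.43 and -1.62) moved less. Dab2, an endocytic adaptor, had 9.71 and 8.28 FPKM in the KO libraries, against 24.73, 29.82 and 23.22 FPKM in WT. Plxnb2, a semaphorin receptor, averaged 1.67 ± 0.247 FPKM in the KO (SD, n = 2) and 6.33 ± 0.878 FPKM in WT (SD, n = 3). Atrnl1 averaged 2.02 ± 0.269 FPKM in the KO (SD, n = 2) and 7.38 ± 0.596 FPKM in WT (SD, n = 3).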

How the data were processed

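The authors deposited 1 table with a column of FPKM per library, per the file headers. HISAT, StringTie 1.2.1, edgeR and mm10 are named, without roles, in the submitters' processing notes. The sources used here do not give the counting rules, the annotation or whether the kit marked strand. The table also holds the authors' signed fold (a score), log fold change and log mean level (scores) and p-values, per the file headers. In the authors' deposited table the adjusted p-value was 9.07e-07 for Ms4a6d, 0.000159 for Ms4a6c, 5.36e-10 for Ms4a7, 0.0588 for Ms4a8a, 0.0828 for Ms4a4c and 0.208 for Ms4a6b. Ms4a8a, Ms4a4c and Ms4a6b thus missed 0.05 there. No row has a group mean of 0, so a gene seen in 1 genotype alone would be missing. FPKM summed to 560387 to 604368 per library. Read totals, and so counting errors, are unknown. Within a group, libraries differed by a median of 0.0937 to 0.158 on the log2 scale.

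The test was limma 3.58.1 in R 4.3.3 on log2(FPKM + 1), with genotype as the only term, a mean-variance trend and 3 residual degrees of freedom, fitted on genes with at least 1 FPKM in at least 2 libraries and adjusted by Benjamini-Hochberg. It was tested on simulated data in which changes were planted only in genes with a mean above 5 FPKM. That run does not cover changes in lower genes such as Ms4a4c, Ms4a6b and Ms4a8a. Members and lists were chosen with earlier results of these data known. Named genes were the members, the other superfamily genes in the table, table genes within 100 kb, the 5 closest profiles and markers that bear on a result. Promoters were aligned globally with Biopython. In all, 17 alternatives were tried.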

Additional observations from a re-analysis of the deposited data

How the results depend on the processing

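Over 17 alternatives, Ms4a6d, Ms4a6c and Ms4a7 kept their direction and call wherever they were tested, as did Ms4a4c, which passed the filter only through WT, and no member reversed. Of 99 member values, 87 stayed on their side of the threshold and 12 lost the call, 10 of Ms4a6b and 2 of Ms4a8a. Besides the cases given above, Ms4a6b lost it without the filter (adjusted p = 0.0774), without the mean-variance trend (0.0525) and under total, upper-quartile and median-of-ratios scaling (0.0532, 0.0655 and 0.0571). With a filter at 5 FPKM, 3 members were tested and all 3 fell, and 3 interferon-induced genes were called, as few as with sex as a covariate (3). Leaving out 1 library gave 4 to 6 members, 4 to 6 interferon-induced genes and 4 other superfamily genes called. Over all genes it gave 1623 (without WT replicate 2) to 2659, against 2507 with all libraries, and sex as a covariate gave 1312. After upper-quartile scaling 53.8% of calls were higher in the KO, against 41.2% without it. With the replicate number as a block, 6 members and 2058 genes were called. Because KO replicate 1 was not analysed, this block sets WT replicate 1 aside. Its log2 changes equal those of the fit without that library, as for Ms4a6c (-1.64 in both) and Ms4a4c (-1.28 in both). The block is thus not a separate estimate among the 17 alternatives. Deviations of same-numbered libraries correlated at -0.029 and 0.099. With 2 KO libraries each KO deviation mirrors the other, so these values cannot decide whether the numbers pair the samples. Leaving out a KO library rests on the lone one varying like WT. Bst2 changed sign under upper-quartile and quantile scaling (log2 change 0.03 in both) and ran from -0.32 to 0.22 when 1 library was left out. Adgre1 (upper-quartile 0.03, quantile 0.01, sex 0.15) and Ly6c2 (median-of-ratios 0.01, upper-quartile 0.05) changed sign too and did not pass in any fit, running from -0.16 to 0.06 and from -0.10 to 0.03 when 1 library was left out. Unknown depth limits the genes near 1 FPKM, Ms4a4c and Ms4a8a.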
